A study of Mus musculus with 27 samples.

Results

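Whole hearts of C57Bl/6 mice at 4 weeks of age were compared with whole hearts of neonates at postnatal day 1 (P1), to describe how contractile, metabolic, proliferative and blood genes changed over this interval. The comparison held 6 of the 27 RNA-seq samples of the series, 3 at each age, and they were chosen by their tissue and age labels alone. The series also holds 9 whole hearts of older mice, which entered the fit, and 12 samples of PDGFRα cardiac fibroblasts. The sample labels name an age and a tissue and no genetic change or treatment, while the design line of the series speaks of myocardial infarction, which no sample label does. The study's methods give 3 animals per age, and the labels give neither the sex of the animals nor the number of hearts in a sample. Transcripts of both sexes were present in every P1 sample: Xist, the RNA of the inactive X chromosome, ran from 124 to 334 CPM (counts scaled to a common library size) and the Y-linked gene Ddx3y from 4.58 to 26.6. At 4 weeks, in replicates 1, 2 and 3, Xist measured 77.4, 6.48 and 140.5 CPM and Ddx3y 33.9, 6.42 and 1.64 CPM, so that both were counted there too. The part of sex or pooling in the results below was not tested.

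A mouse heart at birth still grows by division of its cardiac myocytes, burns glucose and lactate and makes fetal versions of several contractile proteins. Over the first weeks the myocytes leave the cell cycle and enlarge, exchange the fetal isoforms for adult ones, build mitochondria, T-tubules and calcium stores, and turn to fatty acids for fuel. In the whole organ these changes are seen together with those of endothelial cells, fibroblasts, mural cells, macrophages and blood, so that fewer cells of a type and less RNA per cell cannot be told apart.

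Total counts per sample ran from 65549640 to 67984404. Of 22855 genes in the table, 17995 passed the filter on low counts and were tested, and 2179 of them (12.1%) were higher at 4 weeks and 1097 (6.10%) lower by edgeR's quasi-likelihood F test at a Benjamini-Hochberg adjusted p under 0.05. Levels are CPM, the share of a library that a gene takes, scaled by TMM, which sets libraries to a common level over their typical genes. The choice of scaling moved the values: across all tested genes the log2 fold change had a median of -0.09, and of -0.60 with library size alone, a shift of -0.51, and the split became 980 higher and 3797 lower. Counts of list members below stand beside these shares: 12.1% higher and 6.10% lower, or 980 and 3797 of 17995 genes with library size alone. Replicate 2 of the 4-week hearts was the least like the others of its age. Pearson correlations of log2 CPM were 0.902 and 0.887 with replicates 1 and 3, against 0.930 between those. Its deviations from the other 4-week hearts ran against transcript length (Spearman's rho -0.36 across 12932 genes with exon length, against 0.35 and 0.11 for replicates 1 and 3), its share of mitochondrial transcripts was the lowest of its age, and its haemoglobin and atrial transcripts were the highest among the 4-week hearts. Such deviations balance out over the 3 hearts, so that the rho values alone do not show which heart differed. Several results that rest on replicate 2 are given with and without it.

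Contractile genes showed the exchange of isoforms most plainly. Of 40 sarcomere genes tested, 22 rose and 6 fell, with a median log2 fold change of 0.62. With library size alone 11 rose and 7 fell, with a median of 0.11. Without 4-week replicate 2, 18 rose and 7 fell. Myosin heavy chain is the motor of the thick filament, and the heart uses a slow fetal form, Myh7, and a fast adult form, Myh6. Myh7 measured 4500, 5493 and 2458 CPM in P1 samples 1, 2 and 3 and 23.4, 33.1 and 24.8 CPM at 4 weeks (log2 fold change -7.26 ± 0.62 SE, adjusted p = 4.37e-07, edgeR). Myh6 measured 13168, 10017 and 10298 CPM at P1 and 33874, 29877 and 26363 CPM at 4 weeks, a rise of 2.69-fold (log2 fold change 1.43 ± 0.17, adjusted p = 1.11e-05, edgeR). All 4-week hearts lay below all P1 hearts for Myh7 and above them for Myh6. Per exon length, Myh6 made up 77.8% ± 7.21 (SD, n = 3) of the pair at P1 and 99.9% ± 0.0164 (SD, n = 3) at 4 weeks. The groups did not overlap, and the exact two-sided permutation test gave p = 0.1, the smallest that 3 samples against 3 allow. In the older hearts Myh6 made up 97.9% to 99.5% of the pair on average. Long stretches of the paralogs are alike, and reads that matched both were not counted, so that the shares rest on the parts that differ.

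Myh6 (chr14:54941921-54966927) and Myh7 (chr14:54970684-54994626, both on the minus strand of GRCm38) lie side by side, and their promoters are shown because the neighbours moved in opposite directions. The stretches run from 250 bases before to 30 bases from the RefSeq start on (GRCm38.p6, minus strand, Myh7 at chr14:54994597-54994876 and Myh6 at chr14:54966578-54966857). Capitals mark the M-CAT letters, searched as CATTCC and, on the other strand, GGAATG.
Myh7: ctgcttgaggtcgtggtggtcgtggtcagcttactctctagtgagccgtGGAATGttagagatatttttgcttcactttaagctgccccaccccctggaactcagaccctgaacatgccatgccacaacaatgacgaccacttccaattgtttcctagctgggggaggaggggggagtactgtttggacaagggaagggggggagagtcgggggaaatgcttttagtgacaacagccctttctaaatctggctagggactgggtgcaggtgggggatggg
Myh6: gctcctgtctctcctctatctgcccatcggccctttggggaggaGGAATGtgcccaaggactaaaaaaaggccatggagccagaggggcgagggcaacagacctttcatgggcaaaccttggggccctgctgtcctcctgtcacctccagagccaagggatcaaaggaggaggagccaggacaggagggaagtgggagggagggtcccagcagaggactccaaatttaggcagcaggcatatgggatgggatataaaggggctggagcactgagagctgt
The match began 201 bases before the start in Myh7 and 206 in Myh6, so that the same letters stood at a similar distance in the gene that fell and in the one that rose. M-CAT letters were in 12 of the 35 sarcomere genes with a window (34.3%) and in 12.2% of the 12195 tested genes with a window, which are 67.8% of all genes tested. The MEF2 motif, the binding sequence of myocyte enhancer factor 2, was in 14.3% of the sarcomere windows and 0.533% of all, and the CArG motif of serum response factor in 20% and 1.34%. Such a match describes the letters and not a site in use.

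Troponin I is the inhibitory subunit of the thin filament switch, and the slow skeletal form Tnni1 gives way to the cardiac form Tnni3. Tnni1 measured 1560, 1525 and 1460 CPM at P1 and 1.16, 2.98 and 0.452 CPM at 4 weeks (log2 fold change -9.95 ± 1.06, adjusted p = 4.36e-06). This was the largest fall of any gene with a level of at least 10 CPM and groups that did not overlap. Tnni3 rose from 2349, 1797 and 1976 CPM to 4487, 6778 and 4806 CPM, a 2.62-fold rise (adjusted p = 1.57e-04). The Tnni3 share of the pair per exon length was 70.0% ± 2.59 (SD, n = 3) at P1 and 99.985% ± 0.00992 (SD, n = 3) at 4 weeks, with an exact permutation p = 0.1. Tpm2, the beta form of tropomyosin, fell from 75.3 to 27.6 CPM (adjusted p = 5.99e-04). Troponin T, by contrast, did not pass the test: Tnnt2 averaged 7413 ± 860 CPM (SD, n = 3) at P1 and 8097 ± 525 CPM at 4 weeks (adjusted p = 0.687), and the ventricular light chain Myl2 was not called either (adjusted p = 0.203).

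Other sarcomere genes rose as well. Xirp2, an actin-binding protein of the intercalated disc, measured 10.6, 13.4 and 14.7 CPM at P1 and 521, 99.6 and 446 CPM at 4 weeks (log2 fold change 4.78 ± 0.49, adjusted p = 2.84e-06). Replicate 2 was the low value at 4 weeks, and without it the log2 fold change was 5.23. Tcap, which caps titin at the Z-disc, rose from 149, 118 and 123 CPM to 517, 570 and 533 CPM (4.15-fold, adjusted p = 4.15e-07), and Lmod2, which lengthens thin filaments, rose by 1.74 on the log2 scale (adjusted p = 4.36e-06). Xirp2 is shown from 120 bases before to 30 bases from its start on (chr2:67445882-67446031, plus strand), because it had the largest rise in the list and its promoter holds a MEF2 motif, given in capitals, that begins 74 bases before the start.
Xirp2: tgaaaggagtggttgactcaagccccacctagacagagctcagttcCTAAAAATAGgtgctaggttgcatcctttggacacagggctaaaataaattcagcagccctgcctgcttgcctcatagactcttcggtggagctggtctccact

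**Figure D1:**
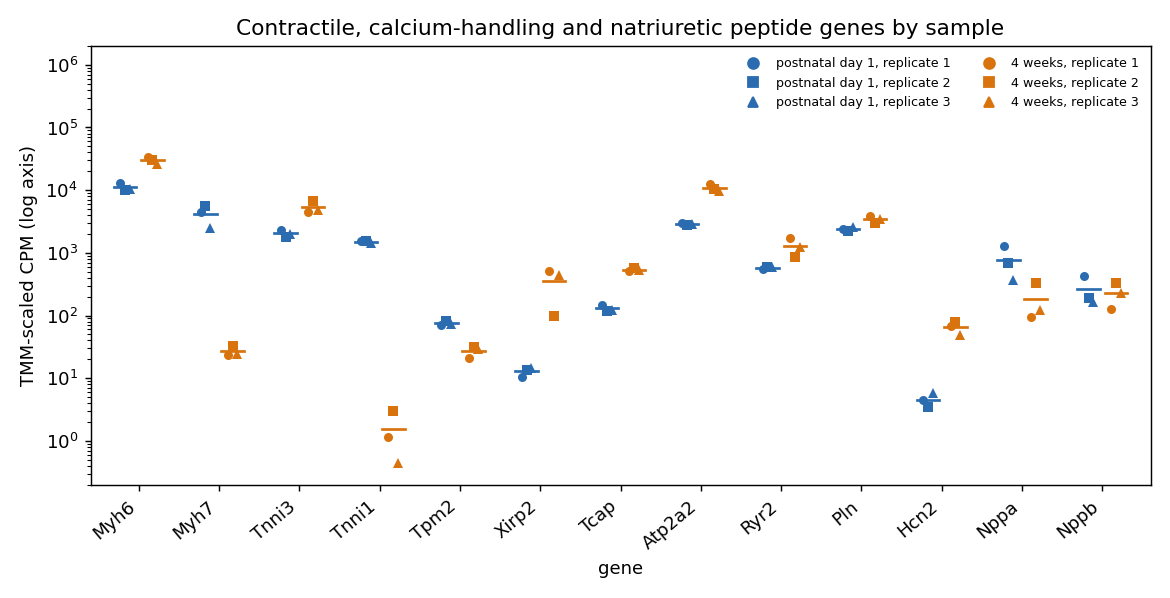
TMM-scaled CPM on a log axis for 13 contractile, calcium-handling, ion channel and natriuretic peptide genes in each P1 and 4-week heart; symbols give the replicate and bars the mean of 3. Myh7 and Tnni1 fall while Myh6 and Tnni3 rise, Xirp2 is lowest at 4 weeks in replicate 2 (99.6 CPM), and the ages overlap for Nppb.

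Of 47 calcium handling and ion channel genes tested 23 rose and 1 fell, with a median of 0.60 on the log2 scale. With library size alone 17 rose and 9 fell, with a median of 0.08. Atp2a2 encodes the SERCA2 pump that refills the sarcoplasmic reticulum. It measured 2982, 2808 and 2914 CPM at P1 and 12601, 10310 and 9698 CPM at 4 weeks (3.75-fold, adjusted p = 1.24e-07). Its inhibitor phospholamban, Pln, rose less, from 2444, 2197 and 2590 CPM to 3921, 3032 and 3525 CPM (1.45-fold, adjusted p = 0.00733). That call was lost without P1 replicate 2 (adjusted p = 0.0551), and 64.7% of the Pln exon bases overlap other genes in GENCODE M21, where reads of an unstranded count would be dropped. Ryr2, the release channel, rose from 544, 592 and 595 CPM to 1707, 850 and 1237 CPM (adjusted p = 0.00129), again with replicate 2 lowest at 4 weeks. With library size alone neither Ryr2 nor Pln was called, and Pln was not called with only the P1 and 4-week hearts fitted. The luminal calcium binder Hrc rose 8.74-fold from 105 to 916 CPM (adjusted p = 6.82e-09). Hcn2, a pacemaker channel, rose from 4.47, 3.44 and 5.71 CPM to 68.2, 77.7 and 48.7 CPM (adjusted p = 4.78e-08). The member that fell was Kcne1, the small partner of the slow delayed rectifier, from 112 ± 32.8 to 33.0 ± 18.0 CPM (SD, n = 3; adjusted p = 0.0206), and the call was lost without P1 replicate 3, 4-week replicate 1 or 4-week replicate 3 (highest adjusted p = 0.0928). Cacna1c, the pore of the L-type channel, and the gap junction gene Gja1 did not pass the test (adjusted p = 0.633 and 0.559).

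Natriuretic peptides, hormones that atria and fetal ventricles secrete on stretch, behaved differently from each other. Nppa measured 1264, 699 and 364 CPM at P1 and 94.0, 330 and 123 CPM at 4 weeks (log2 fold change -2.09 ± 0.56, adjusted p = 0.0148). The call was lost without P1 replicate 1, 4-week replicate 1 or 4-week replicate 3 (highest adjusted p = 0.0900), and 61.5% of its exon bases overlap another gene. Nppb measured 431, 191 and 163 CPM at P1 and 128, 328 and 231 CPM at 4 weeks, and the groups overlapped (adjusted p = 0.776). Of the 14 genes of the atrial list 1 rose, the potassium channel gene Kcnj3, and 1 fell, Nppa itself. These counts are near the shares of all genes tested, 12.1% higher and 6.10% lower. The list summed to 2385, 1762 and 1294 CPM at P1 and 740, 1138 and 694 CPM at 4 weeks. The atrial light chain Myl4 ranged from 4.10 to 77.5 CPM among the 4-week hearts, highest in replicate 2. Without that heart Myl4 was called lower as well (log2 fold change -3.54, adjusted p = 0.0389, edgeR), so that 2 atrial genes fell. The log2 fold change of Nppa was then -2.84. How much atrium each sample held was not measured, and the part of atrial tissue in the Nppa values was not tested.

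Genes of mitochondrial oxidation rose in large numbers. In the tricarboxylic acid (TCA) cycle and pyruvate entry list 22 of 25 genes rose, with a median log2 fold change of 0.90 (0.39 with library size alone), and in the nuclear respiratory chain list 62 of 79 rose and 2 fell, with a median of 0.83. With library size alone the respiratory chain list had 17 higher and 3 lower, with a median of 0.33. Without 4-week replicate 2 these counts were 21 and 45 higher. Ogdh, the catalytic subunit of the oxoglutarate dehydrogenase complex, rose 4.00-fold from 513, 536 and 710 CPM to 2331, 2688 and 2019 CPM (adjusted p = 7.99e-08). The mitochondrial genome itself, which encodes 13 respiratory chain subunits, took 12.03%, 10.8% and 13.7% of all counts at P1 and 26.7%, 14.9% and 20.1% at 4 weeks. The mean rose by 8.41 percentage points (exact permutation p = 0.1), the groups did not overlap, and the smallest share at 4 weeks was that of replicate 2. Of its 13 genes 5 were called higher, and 7 were without replicate 2.

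In cytochrome c oxidase, some subunits come as paired isoforms, and in 2 pairs a member fell while its partner rose. Cox6a1, the form found in most tissues, fell from 310, 259 and 238 CPM to 101.2, 139 and 123 CPM (adjusted p = 2.65e-04). The heart and muscle form Cox6a2 rose from 931, 591 and 735 CPM to 1973, 3268 and 2085 CPM (3.25-fold, adjusted p = 4.35e-05). The same held for Cox8a, which fell by 0.94 on the log2 scale (adjusted p = 0.00324), and Cox8b, which rose by 1.60 (adjusted p = 9.35e-05). Cox7a1, another muscle form, had the largest rise of the list at 5.45-fold (113 ± 17.1 to 614 ± 126 CPM, SD, n = 3). Its partner Cox7a2 was not called (adjusted p = 0.917), and Cox4i1 and Cox4i2 both rose (adjusted p = 0.00712 and 0.0112). Cox6a1 and Cox8a were the members of the list that fell.

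Among 40 fatty acid genes 22 rose and 4 fell, with a median of 0.57 on the log2 scale. With library size alone 11 rose and 10 fell, with a median of 0.06. Without 4-week replicate 2, 18 rose and 3 fell. Lipoprotein lipase, Lpl, which frees fatty acids from circulating triglyceride, rose from 1214, 654 and 852 CPM to 4461, 2800 and 3574 CPM (adjusted p = 1.76e-05). Dgat2, which makes triglyceride for storage, rose 5.11-fold (adjusted p = 1.59e-07), and Acad11, a dehydrogenase of long-chain acyl-CoA, 3.97-fold (adjusted p = 5.50e-08). The members that fell included the thioesterase Acot1 (6.31-fold lower, adjusted p = 5.43e-05) and Cpt1a, the liver form of the carnitine transferase, which fell from 113, 111 and 85.3 CPM to 39.2, 41.3 and 40.4 CPM (adjusted p = 6.67e-05). The muscle form Cpt1b was counted at only 5.55 to 7.73 CPM at P1 and 3.27 to 3.86 CPM at 4 weeks (adjusted p = 0.207). In GENCODE M21, 81.4% of its exon bases lie in a second gene model on the same strand, and reads there belong to neither gene for a counter that drops ambiguous reads, so that the level of Cpt1b and its share of 12.5% and 16.8% of the pair are not reliable. Cd36, the fatty acid transporter, and Fabp3, the carrier in the cytosol, were not called (adjusted p = 0.451 and 0.333).

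Of 11 ketone and creatine genes tested 6 rose and 2 fell. Oxct1, which starts the breakdown of ketone bodies, measured 191, 204 and 186 CPM at P1 and 1016, 878 and 873 CPM at 4 weeks (4.76-fold, adjusted p = 6.82e-09). Bdh1, which interconverts ketone bodies, was called higher (adjusted p = 0.00314) although 4-week replicate 1 at 2.93 CPM lay within the P1 range of 2.38 to 3.06, and replicates 2 and 3 measured 23.4 and 10.7 CPM. Without 4-week replicate 2 the log2 fold change of Bdh1 was 1.29. Its mean then reached 140 CPM at 14 weeks, so that most of its rise came after 4 weeks. The mitochondrial creatine kinase Ckmt2, which hands ATP to phosphocreatine, rose 13.2-fold from 211, 131 and 119 CPM to 1904, 2389 and 1780 CPM (adjusted p = 1.03e-08), while the cytosolic muscle form Ckm was not called (adjusted p = 0.0784).

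Glycolysis genes were mixed, with 12 of 32 higher and 4 lower, where 12.1% of all genes tested were higher and 6.10% lower. With library size alone 6 were higher and 9 lower and their median of 0.28 turned to -0.23. Within isoform pairs the change was clearer. Slc2a4, the insulin-regulated glucose transporter GLUT4, rose from 82.8, 59.6 and 76.2 CPM to 322, 420 and 312 CPM (adjusted p = 4.71e-08), while Slc2a1 (GLUT1) stayed near 20 CPM (20.7 ± 0.553 and 19.4 ± 3.62, SD, n = 3; adjusted p = 0.840). Hk2, the muscle hexokinase, rose from 34.9, 45.8 and 64.8 CPM to 336, 282 and 239 CPM, and its share of the Hk1 and Hk2 pair per exon length went from 23.6% ± 7.53 to 60.0% ± 4.56 (SD, n = 3). The Ldhb share of lactate dehydrogenase went from 65.2% ± 3.504 to 74.5% ± 1.03 (SD, n = 3). Neither of these shares overlapped between ages (exact permutation p = 0.1 each), and Hk1 and Ldha themselves did not pass the test. Pdk3, a kinase that holds pyruvate dehydrogenase off, fell 6.64-fold (adjusted p = 3.41e-04), while Pdk4 was not called (adjusted p = 0.0996).

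Regulators of these programs split. Rxrg, a partner of nuclear receptors, rose from 2.03, 1.04 and 2.96 CPM to 57.3, 87.2 and 49.3 CPM (32.1-fold, adjusted p = 1.63e-08), and Perm1, a muscle regulator of mitochondrial genes, 4.70-fold (adjusted p = 4.56e-07). The thyroid hormone receptor Thrb rose from 2.06 to 15.6 CPM (adjusted p = 5.49e-04). Ppargc1a, the coactivator PGC-1α, measured 127, 106 and 125 CPM at P1 and 133, 54.0 and 102 CPM at 4 weeks (adjusted p = 0.619), and replicate 2 was again the low value. Of the 23 regulators tested 8 rose and 3 fell, and with library size alone 6 rose and 6 fell and their median of 0.14 turned to -0.37.

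**Figure D2:**
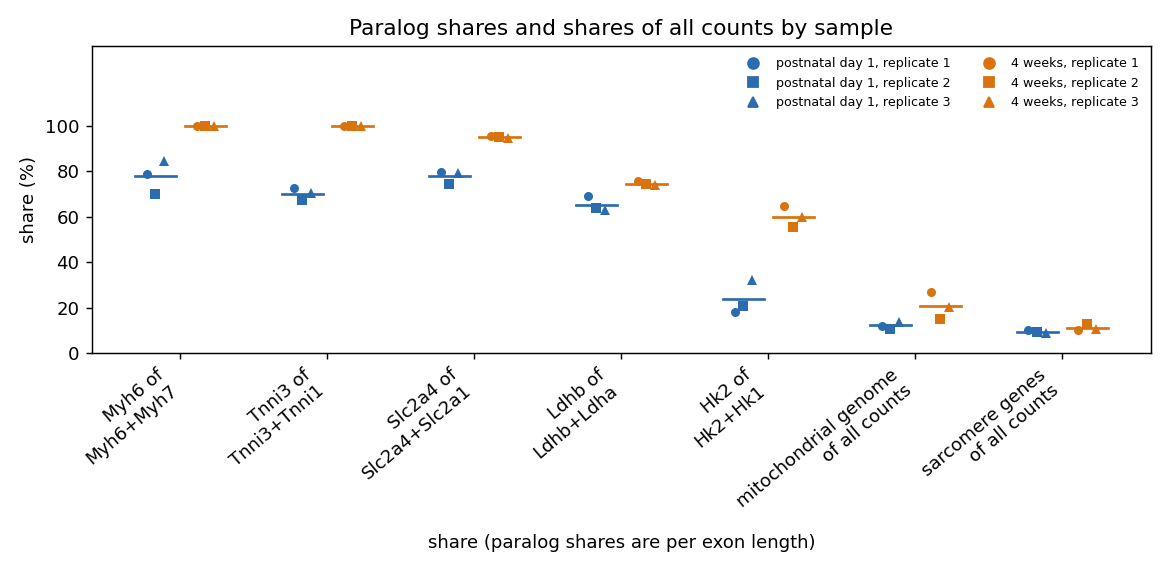
Share in percent, in each P1 and 4-week heart, of 5 paralog pairs per exon length and of the mitochondrial genome and the 40 sarcomere genes among all counts; symbols give the replicate and bars the mean of 3. The Hk2 share has the widest gap between ages (23.6% and 60.0%), and the mitochondrial share at 4 weeks spreads from 14.9% in replicate 2 to 26.7% in replicate 1.

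Proliferation genes were lower at 4 weeks. Every one of the 54 mitosis genes tested was lower in all 3 hearts at 4 weeks than in any at P1, against 20.8% of all genes tested, and their median log2 fold change was -2.59. The test called 25 of them lower. With only the P1 and 4-week hearts fitted, and not the 5 ages, the count was 43 of 54, where 8.69% of all genes were called lower. Of 43 DNA replication genes 12 fell (21 with only these ages fitted), with a median of -1.53, and all 3 hearts lay below all P1 hearts for 28. Leaving out any of the 6 hearts left 14 to 16 mitosis calls, and 5 to 16 replication calls, the fewest without P1 replicate 3 (without P1 replicate 2, 6).

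Ccnb1, cyclin B1 of the mitotic kinase, measured 18.7, 18.6 and 21.03 CPM at P1 and 0.924, 0.771 and 1.70 CPM at 4 weeks (17.2-fold lower, adjusted p = 8.78e-04). Top2a, the topoisomerase that untangles replicated chromosomes, fell from 49.7, 72.0 and 91.6 CPM to 13.8, 9.93 and 22.2 CPM (4.64-fold, adjusted p = 0.00169). Mki67, the proliferation marker Ki67, fell from 61.0, 82.9 and 70.2 CPM to 28.8, 6.14 and 20.5 CPM, the lowest in replicate 2 (adjusted p = 0.0348). The groups did not overlap for any of these genes, but the Mki67 call was lost in 5 of the 6 fits that left out a heart (highest adjusted p = 0.104). It held without 4-week replicate 1. Among replication genes Rrm2, the subunit of ribonucleotide reductase that limits the supply of DNA precursors, fell 10.3-fold from 36.6, 47.2 and 52.2 CPM to 4.11, 2.36 and 6.75 CPM (adjusted p = 4.62e-04), and the thymidine kinase Tk1 5.00-fold (adjusted p = 9.46e-04). Pcna, the sliding clamp of the polymerase, and the maintenance methyltransferase Dnmt1 were not called (adjusted p = 0.181 and 0.351).

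The promoters of 3 mitosis genes and 1 replication gene are shown because many genes of their lists fell and hold the letters that are textbook marks of cell cycle promoters. Each runs from 120 bases before to 30 bases from the start on, on the minus strand of GRCm38.p6, for Ccnb2 (cyclin B2, chr9:70421525-70421674), Hmmr (a spindle protein, chr11:40733408-40733557), Racgap1 (a cytokinesis regulator, chr15:99651627-99651776) and Mcm6 (a subunit of the replicative helicase, chr1:128359676-128359825). The genes were picked after their values and letters were seen. Capitals mark the cell cycle homology region (CHR, TTTGAA or TTCAAA) and the CCAAT box (CCAAT or ATTGG) in the mitosis genes, and E2F letters (TTTCCCGC, TTTGGCGC, TTTCGCGC, TTTGCCGC or the same on the other strand) and CCAAT boxes in Mcm6.
Ccnb2: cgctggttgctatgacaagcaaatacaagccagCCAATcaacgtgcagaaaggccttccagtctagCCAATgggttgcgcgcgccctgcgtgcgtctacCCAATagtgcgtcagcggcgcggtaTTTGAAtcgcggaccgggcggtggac
Hmmr: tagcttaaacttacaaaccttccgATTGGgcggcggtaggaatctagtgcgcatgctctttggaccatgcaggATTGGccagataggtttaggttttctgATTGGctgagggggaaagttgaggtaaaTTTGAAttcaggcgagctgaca
Racgap1: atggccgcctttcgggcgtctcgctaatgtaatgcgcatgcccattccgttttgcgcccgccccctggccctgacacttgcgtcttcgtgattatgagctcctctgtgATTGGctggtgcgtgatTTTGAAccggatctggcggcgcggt
Mcm6: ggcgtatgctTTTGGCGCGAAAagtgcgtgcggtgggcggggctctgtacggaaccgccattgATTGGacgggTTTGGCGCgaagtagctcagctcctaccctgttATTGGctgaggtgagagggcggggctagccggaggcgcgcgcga
The CHR began 4, 8 and 5 bases after the start in Ccnb2, Hmmr and Racgap1, with a CCAAT box 21, 20 and 12 bases before the start. In Mcm6 the E2F letters at 110 and 106 bases before the start overlap, since they are read on opposite strands. Shares of genes with a motif are over the full promoter windows, which reach further than the stretches shown. CHR letters were in 32 of the 45 mitosis genes with a window (71.1%), against 12.2% of all tested genes with a window. Taking the last CHR match of each window, 25 of those 32 (78.1%) began within 30 bases on either side of the start. Of all windows that hold CHR letters 16.1% did so. CCAAT boxes were in 75.6% of the mitosis windows and 38.2% of all. E2F letters were in 14 of 36 replication windows (38.9%), in 6.67% of mitosis windows and in 3.9% of all. The shown genes fell as follows: Ccnb2 from 35.9 ± 7.28 to 2.45 ± 0.643 CPM, Hmmr from 24.6 ± 5.73 to 1.83 ± 1.31 CPM, Racgap1 from 49.7 ± 3.67 to 6.27 ± 0.798 CPM and Mcm6 from 35.6 ± 14.8 to 12.1 ± 1.17 CPM (SD, n = 3 each). All were called lower, and the Ccnb2 call was lost in 5 of the 6 fits that left out a heart (highest adjusted p = 0.0856) and held without P1 replicate 3.

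G1 regulators were less uniform. Of 8 cyclins, kinases and Myc genes tested 4 fell, among them Cdk4 (from 112 ± 12.1 to 46.3 ± 7.48 CPM, SD, n = 3; adjusted p = 1.10e-05) and Myc (5.05-fold lower, adjusted p = 0.00254). Ccnd1 measured 46.3, 87.7 and 91.9 CPM at P1 and 80.0, 119 and 120 CPM at 4 weeks, and Ccnd2 103, 179 and 194 CPM and 143, 121 and 143 CPM. The ages overlapped for both D-type cyclins, and neither was called (adjusted p = 0.179 and 0.496). Inhibitors of cyclin-dependent kinases moved both ways: Cdkn1c (p57) fell from 127, 114 and 73.6 CPM to 28.1, 29.5 and 30.1 CPM (adjusted p = 3.54e-04), while Cdkn1a (p21) rose from 54.0, 27.9 and 26.7 CPM to 98.8, 70.5 and 48.8 CPM (adjusted p = 0.0338). The Cdkn1a groups overlapped, and the call was lost without P1 replicate 2 or 3 or 4-week replicate 1 or 2 (highest adjusted p = 0.156). The Cdkn1a call was also lost with library size alone and with only the P1 and 4-week hearts fitted.

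Many fetal growth genes fell: 15 of 23 tested were lower and the median log2 fold change was -2.39. Many of them are imprinted, expressed from the allele of a single parent. Igf2, a fetal growth factor, measured 1736, 2235 and 1654 CPM at P1 and 130, 147 and 160 CPM at 4 weeks (12.9-fold lower, adjusted p = 1.13e-08), and 64.6% of its exon bases overlap other gene models. H19, the non-coding RNA of the same imprinted locus on chromosome 7, fell from 2922, 3337 and 2272 CPM to 62.7, 77.1 and 90.5 CPM (37.0-fold, adjusted p = 5.74e-09). Dlk1, a Notch-like regulator of the imprinted chromosome 12 cluster, fell from 82.5, 110 and 78.1 CPM to 0.159, 1.03 and 0.254 CPM (186-fold, adjusted p = 1.70e-06). Igf2bp3, which binds Igf2 mRNA, fell 51.6-fold (adjusted p = 0.00167). Yap1 and Wwtr1, effectors of the Hippo growth pathway, were not called (adjusted p = 0.450 and 0.737).

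**Figure D3:**
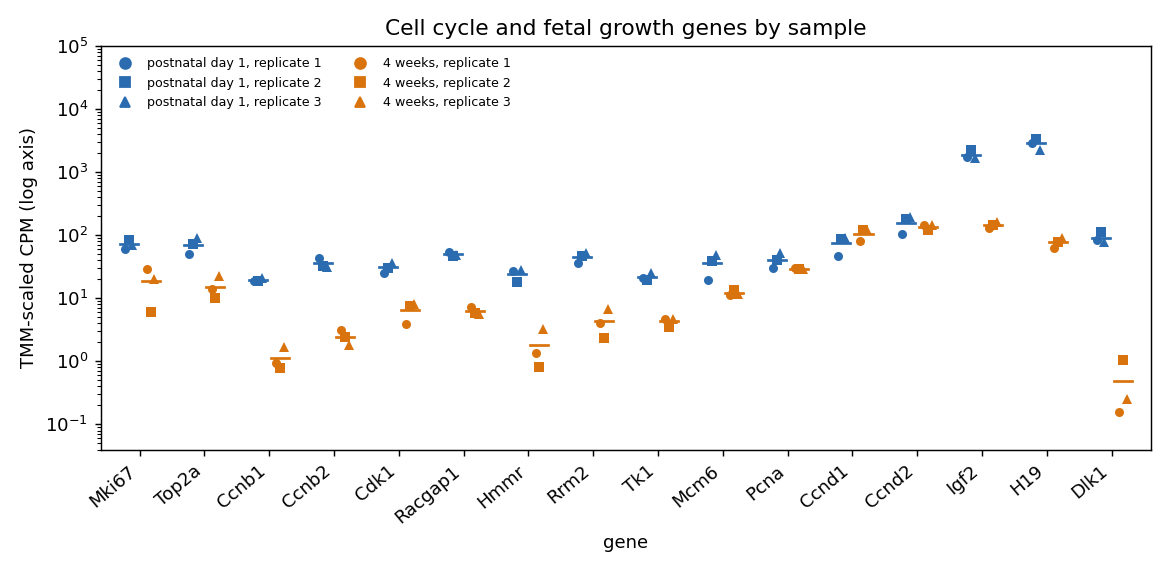
TMM-scaled CPM on a log axis for 16 cell cycle and fetal growth genes in each P1 and 4-week heart; symbols give the replicate and bars the mean of 3. The mitosis, replication and fetal growth genes separate by age, while Pcna, Ccnd1 and Ccnd2 lie close together at both ages.

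Cardiac fibroblasts of the same ages showed falls in these lists too. In a fit of all 27 samples the median change of the mitosis genes was -2.61 on the log2 scale in whole hearts and -1.87 in fibroblasts, and that of the replication genes -1.54 and -1.42. The difference between the tissues passed the test for 1 of 54 mitosis genes and 0 of 43 replication genes, against 7.14% of all 20650 genes tested. At an unadjusted p under 0.05 the edgeR test counted 1 and 0, and DESeq2 called 1 and 0. The mitosis gene was the phosphatase Cdc25b. In the same fit 23 mitosis genes were called lower in whole hearts and 10 in fibroblasts, and 16 and 12 replication genes. The common biological coefficient of variation of that fit was 83.56%, with 3 samples per tissue at each of these ages. Few calls of a difference therefore do not show that the tissues changed alike. That fit took the samples of both tissues as independent, although some may come from the same hearts.

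The ribosome also exchanged a paralog. Rpl3, a core protein of the large subunit, fell from 303, 255 and 280 CPM to 82.7, 140 and 107 CPM (adjusted p = 1.13e-04), while its striated muscle paralog Rpl3l rose from 9.68, 3.20 and 5.52 CPM to 228, 286 and 220 CPM (39.9-fold, adjusted p = 1.03e-08). On the level per kilobase of exon, Rpl3 went from 88.1 to 34.6 CPM and Rpl3l from 3.73 to 149 CPM. Of the 87 ribosomal protein genes tested 21 fell and 1 rose, the riser being Rpl3l, with a median of -0.40. Of all genes tested 6.10% fell. The count of falls moved with the processing. It was 73 with library size alone (median -0.90), where 3797 of all 17995 genes fell. An offset for exon length gave 48 falls, leaving out 4-week replicate 2 gave 36, and DESeq2 gave 28. With only the P1 and 4-week hearts fitted 9 of 84 fell, near the share of all genes in that fit (8.69%). Each of these settings had 1 rise.

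Blood genes did not move as a block. The 4 adult haemoglobin genes with a row summed to 562, 442 and 463 CPM at P1 and 423, 1424 and 735 CPM at 4 weeks, and 4-week replicate 2 was the highest and replicate 1 the lowest of all 6. None of the 4 passed the edgeR test (2 at an unadjusted p under 0.05, and 0 by DESeq2). Hbb-bs, the main adult beta globin, measured 415, 335 and 365 CPM at P1 and 329, 1058 and 581 CPM at 4 weeks (adjusted p = 0.126, but 0.0241 without 4-week replicate 1), and Hba-a1 was called likewise only without that heart (adjusted p = 0.0186). Haemoglobin took 0.0697% ± 0.00773 of all counts at P1 and 0.0870% ± 0.0528 at 4 weeks (SD, n = 3; exact permutation p = 0.8), and the difference turned from 0.0174 to -0.0111 percentage points without 4-week replicate 2. Hba-a1 and Hba-a2, and Hbb-bs and Hbb-bt, are near-identical copies, and only reads unique to a copy were counted, so that the levels understate haemoglobin RNA. Alas2, the haem synthesis enzyme of red cell precursors, followed the same order of samples at 4 weeks (16.5, 57.6 and 25.5 CPM) and was not called (adjusted p = 0.502).

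Red cell genes beyond haemoglobin gave 7 higher and 1 lower of 29 tested, with a median of 0.47. Among all genes tested 12.1% were higher and 6.10% lower. With library size alone there were 4 higher and 3 lower, and the median became -0.02. Of those that rose, Ank1 and Sptb also build the membrane skeleton of muscle, and Aqp1 is also the water channel of capillary endothelium. Aqp1 rose from 64.7, 78.7 and 77.2 CPM to 366, 403 and 357 CPM (adjusted p = 1.18e-07), and Ank1 from 97.0, 96.3 and 116 CPM to 458, 498 and 386 CPM (adjusted p = 1.63e-08). The neutrophil list summed to 13.2 to 17.7 CPM at P1 and 5.57 to 11.3 CPM at 4 weeks, and none of its 15 tested genes was called by edgeR or DESeq2 (1 at an unadjusted p under 0.05). Platelet genes summed to at most 49.5 CPM and lymphocyte genes to at most 24.2 CPM in any of the 6 hearts. Of 13 platelet genes tested 1 was called higher, and of 21 lymphocyte genes 2, against 12.1% of all genes tested. In both lists 0 were called lower. Itga2b and Itgb3 of the platelet list and Cd4 and Cd79b of the lymphocyte list were not called. Ighm, the heavy chain of IgM, rose from 1.65 ± 1.11 to 11.6 ± 1.14 CPM (SD, n = 3; adjusted p = 1.56e-04), and Pf4, platelet factor 4, from 3.52 ± 0.924 to 15.1 ± 3.35 CPM (adjusted p = 9.77e-04). Which cells the Pf4 RNA came from was not tested.

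Among macrophage genes 18 of 21 tested were higher, and the median log2 fold change was 2.48 (1.98 with library size alone). Their sum was 186, 148 and 138 CPM at P1 and 962, 981 and 1147 CPM at 4 weeks. Cd74, the chaperone of MHC class II, went from 3.33, 2.43 and 3.99 CPM to 165, 138 and 183 CPM (49.8-fold, adjusted p = 6.82e-09), and the class II chain H2-Ab1 from 0.829, 1.23 and 1.52 CPM to 48.7, 49.2 and 45.1 CPM (39.8-fold, adjusted p = 5.35e-08). The scavenger receptor Cd163 rose from 1.92, 0.0206 and 0.870 CPM to 37.0, 18.5 and 32.9 CPM (adjusted p = 1.53e-04). Lyve1 and Mertk, markers of resident tissue macrophages, were not called, and Lyve1 measured 36.8, 23.7 and 15.3 CPM at P1 and 23.8, 16.1 and 27.7 CPM at 4 weeks (adjusted p = 0.799). Counts were 17 of 21 without 4-week replicate 2.

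**Figure D4:**
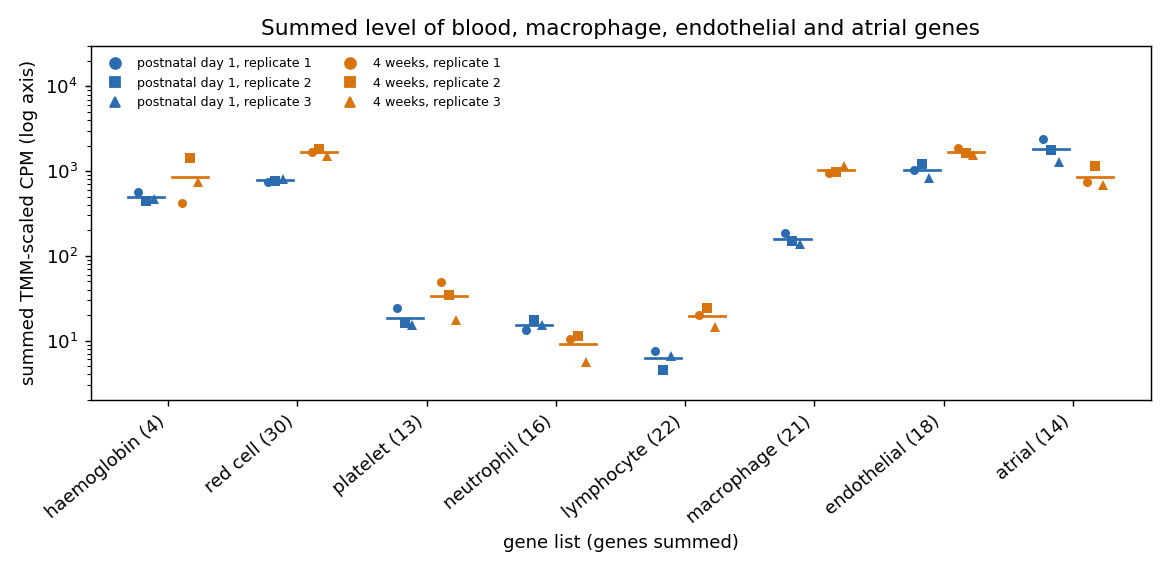
Summed TMM-scaled CPM on a log axis of 8 gene lists in each P1 and 4-week heart, with the number of genes summed in brackets; symbols give the replicate and bars the mean of 3. The macrophage sum is separated by age (138 to 186 against 962 to 1147 CPM), while the haemoglobin sum of 4-week replicate 1 lies below every P1 heart.

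Vessel and stroma genes changed in part. Among 18 endothelial genes 9 rose (median 0.67), and with library size alone 3 rose and 1 fell (median 0.15). Those that rose included the VEGF receptors Flt1 (from 41.4 ± 8.77 to 123 ± 25.1 CPM) and Kdr (from 71.0 ± 22.0 to 203 ± 27.04 CPM, SD, n = 3). Of 15 fibroblast genes 6 rose and 3 fell, and with library size alone 3 rose and 5 fell. Pi16 rose 16.4-fold from 8.37 to 137 CPM (adjusted p = 7.05e-09) and Gsn 6.10-fold, while Postn, a matrix protein of growing and injured tissue, fell from 405, 500 and 629 CPM to 73.0, 26.7 and 129 CPM (adjusted p = 7.44e-05) and Col1a1, the main fibrillar collagen chain, 1.96-fold (adjusted p = 3.53e-04). Tcf21, a transcription factor among the fibroblast markers, was called lower too. Its log2 fold change ran from -1.55 to -1.28 over the fits that left out a heart, and its call held in each. The collagen chains Col1a2 and Col3a1 were not called. Over the fits that left out a heart, their log2 fold changes ran from -0.70 to -0.40 and from -0.44 to -0.12. Col1a2 was called without 4-week replicate 3 and by DESeq2. Markers of neighbouring tissues were measured too. The cartilage, airway and liver genes with a row summed to at most 4.05 CPM in any heart. Of 10 skeletal muscle genes tested 1 rose and 1 fell, near the shares of all genes tested (12.1% and 6.10%). The list summed to 2361 to 2740 CPM at P1 and 2882 to 4657 CPM at 4 weeks, nearly all of it Ckm, which heart muscle also expresses. Mybpc2, the fast myosin-binding protein C, rose from 8.20, 7.39 and 8.10 CPM to 20.6, 28.2 and 16.6 CPM (adjusted p = 0.00380), and Mybpc1, the slow form, fell from 1.13, 1.06 and 1.19 CPM to 0 in all 3 hearts (adjusted p = 0.0199). The Mybpc1 call was lost without 4-week replicate 2. Tnni2, the fast skeletal troponin I, was at most 4.41 CPM and was not called. The part of skeletal muscle in the results was not tested.

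**Figure D5:**
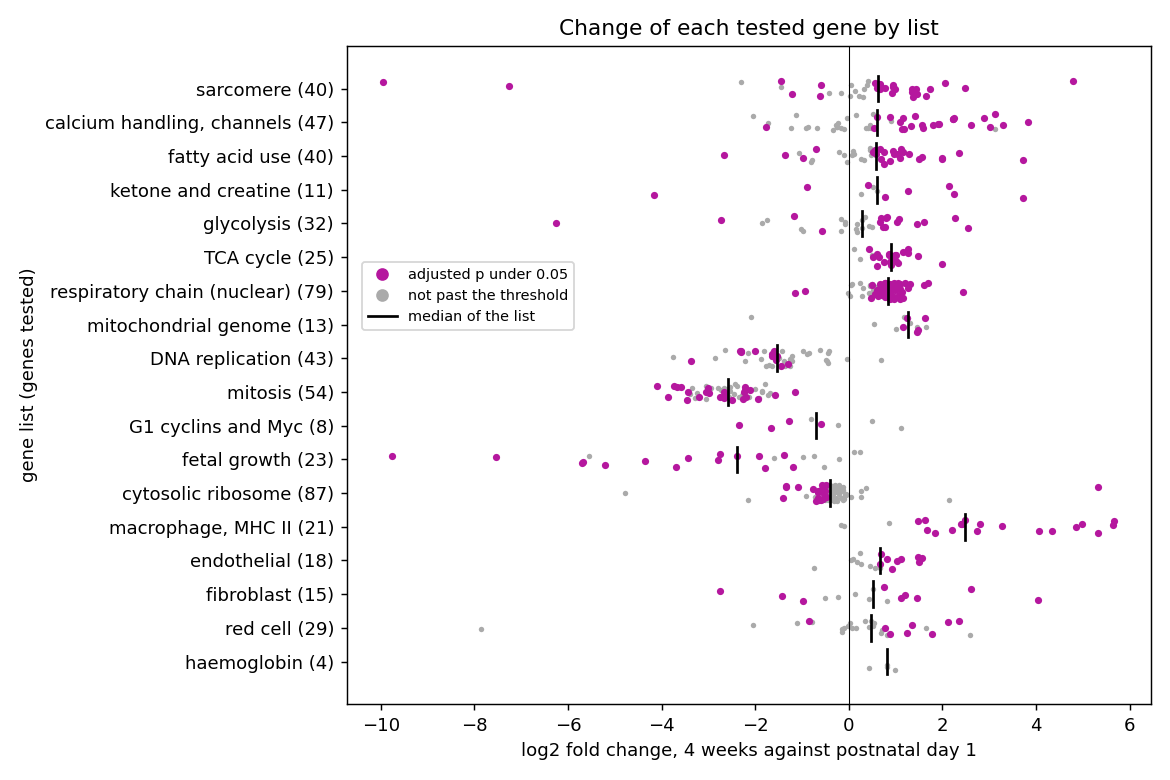
Log2 fold change at 4 weeks against P1 of every tested gene in 18 lists, with the number tested in brackets; coloured points passed an adjusted p of 0.05, grey points did not, and black lines are list medians. TCA cycle and respiratory chain genes lie mostly above 0 (medians 0.90 and 0.83), mitosis genes lie wholly below it (median -2.59), and macrophage genes have the highest median (2.48).

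By size alone, the 10 largest rises among genes with at least 10 CPM and no overlap were 2210407C18Rik, Ces1d, Hrasls, Mgl2, Arhgap20, H2-Q6, Cd74, Mapt, AW112010 and Rpl3l. Ces1d, a carboxylesterase that hydrolyses lipid esters, rose from 1.57, 0.701 and 0.794 CPM to 86.0, 104 and 67.8 CPM (log2 fold change 6.39 ± 0.31, adjusted p = 2.38e-09). 2210407C18Rik was at no more than 1 count in any P1 heart and at 13.3, 3.17 and 22.2 CPM at 4 weeks, at least 403-fold higher against a floor of 3 counts per library. Counts of H2-Q6, of a family of similar class I genes, may share reads with its relatives. The largest falls were Tnni1, Dlk1, Myh7, Gm8113, Aldoc, Clca3a1, Tmem255a, Igf2bp1, Igf2bp3 and Mex3a. Clca3a1, a marker of lymphatic endothelium, fell from 54.0, 39.4 and 25.9 CPM to 1.18, 0.0146 and 0.466 CPM (adjusted p = 0.00121). Aldoc, the brain form of aldolase, fell to at most 0.383 CPM (adjusted p = 0.0376), and its call was lost in 5 of the 6 fits that left out a heart, holding without 4-week replicate 1 (highest adjusted p = 0.113). The Igf2bp1 call was lost without P1 replicate 1, 2 or 3 or 4-week replicate 1 (highest adjusted p = 0.0782), with log2 fold changes from -12.48 to -5.10 over the 6 fits that left out a heart. That of Mex3a was lost without P1 replicate 2 or 4-week replicate 1 (highest adjusted p = 0.0630).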

How the data were processed

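RNA-seq counts of 27 samples were taken from the table the authors deposited, which holds raw read counts per gene symbol. Per the study's methods and the submitters' processing notes, single-end reads of 65 bases were mapped to mm10 with STAR 2.5.3a and counted with its gene count option, which keeps reads that map once and lie in a single gene. The annotation and the counting strand are not given in the sources used here, so that reads of overlapping and antisense genes cannot be told apart. The methods give 3 animals per age for the differential expression analysis. Neither the methods nor the labels say whether a sample pooled hearts. The common biological coefficient of variation of the whole hearts was 71.76%.

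All 15 whole hearts (5 ages, 3 samples each) were fitted together with edgeR 4.0.16 (R 4.3.3): filterByExpr, TMM scaling, glmQLFit and glmQLFTest, 4 weeks against P1, with Benjamini-Hochberg adjustment over all 17995 genes tested and a threshold of 0.05. Adjusted p-values in the text are from this quasi-likelihood test unless another is named. The comparison with fibroblasts is an interaction term in a fit of all 27 samples. Per the study, the hearts that gave the fibroblasts were sequenced as well, and the labels do not say which samples share a heart. The main fit took all samples as independent, with no term for a shared heart. Shares were compared by exact two-sided permutation tests (scipy 1.17.1), which with 3 against 3 cannot go below 0.1. Exon lengths and overlaps came from GENCODE M21 (21796 of 22855 symbols matched), and promoters from RefSeq. Motifs were searched in the first listed promoter window of each gene, which reaches further than the stretches shown. The scripts were tested on simulated data.

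Gene lists and the members described were chosen with earlier results of these data known. Named genes were the fixed isoform and marker genes, in each list up to 4 called members per direction with the largest change at a mean of at least 10 CPM and up to 2 abundant members not called, and the 10 largest changes each way without overlap between ages. Racgap1, Mcm6 and further genes with values in the text that fall outside this rule were chosen after their values were seen, and some genes that the rule names are not reported here. Alternatives were DESeq2 1.42.0, other scalings and filters, a fit of the 2 ages alone, an exon length offset, a replicate block and leaving out each sample.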

Additional observations from a re-analysis of the deposited data

Results flagged for a closer look

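Cdc25b, a phosphatase that activates the mitotic kinase, was the mitosis gene whose change from P1 to 4 weeks differed between tissues. It measured 20.7, 22.2 and 20.3 CPM in P1 hearts and 2.87, 2.94 and 7.77 CPM in 4-week hearts, and the ages did not overlap (log2 fold change -2.22 ± 0.47, adjusted p = 0.00279, edgeR). In cardiac fibroblasts its log2 fold change was 0.09, and the difference, whole heart minus fibroblasts, was -2.33 (adjusted p = 0.00741 for the interaction term in edgeR). The groups held 3 samples per age and tissue, and a link between the tissues through shared hearts was not modelled in this fit.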

How the results depend on the processing

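With library size alone, 980 genes were higher and 3797 lower, and the higher calls were 11 sarcomere, 11 fatty acid, 10 TCA cycle, 17 respiratory chain, 6 glycolysis and 4 red cell genes, with 29 replication genes lower. The medians of glycolysis (-0.23), metabolic regulators (-0.37), red cell (-0.019) and glia genes (-0.077) and the change of Tob1 (-0.47) then turned negative. At a change of at least 2-fold, 1268 genes were higher and 700 lower, with 11 sarcomere, 12 fatty acid, 8 TCA cycle, 18 respiratory chain and 6 glycolysis genes higher. DESeq2 called 1843 genes lower and 24 replication genes. With at least 10 counts in every sample, 22 replication and 13 mitosis genes fell, and the medians were 0.47 for skeletal muscle and -1.25 for glia genes. With only the 2 ages fitted, 21 replication and 43 mitosis genes fell and the skeletal muscle median was 0.18. Leaving out each sample in turn gave 1661 to 1977 genes higher and 654 to 999 lower (654 without P1 replicate 2 and 731 without P1 replicate 3), 5 to 16 replication and 14 to 16 mitosis genes lower, and 44 to 64 respiratory chain genes higher. Over the same fits the medians ran from -0.54 to 0.33 for stretch peptides, -0.45 to 1.87 for platelet, -0.48 to 0.22 for skeletal muscle and -0.21 to 3.91 for glia genes, and the haemoglobin share difference from -0.0111 to 0.0410 percentage points. The 1475 genes that differed between tissues became 2818 by DESeq2, 947 with only the 2 ages, 674 with the 2 ages and the replicate block, and 1051 to 1549 without single samples. Replication genes among them numbered 0 to 1 and mitosis genes 1 to 2 without single samples, and mitosis genes 2 with only the 2 ages. The cause of these shifts was not tested.

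Same-numbered samples were not treated as paired in the main fit. The correlations of their deviations were -0.0561, -0.0269 and 0.0319, and those of different-numbered samples ran from -0.0642 to 0.0729. With 3 samples per age such values cannot show whether samples shared a litter or a batch. A replicate block gave 2019 genes higher and 999 lower, a platelet median of -0.85 and a glia median of -0.80 (-0.82 and -0.96 with a length offset as well). Among 216 named genes, 143 of them called, the block ended 3 calls, Hif1a and Uhrf1 among them, and added 2 (Cenpf and Myl4). Other settings moved more of these calls. Library size alone ended 12, Ryr2, Pln, Cdkn1a and Ldhb among them, and added 18, Ccnd2, Pcna and Dnmt1 among them. Leaving out single samples ended 15 to 21 calls and added 0 to 6. Depth limits genes of a few counts, such as 2210407C18Rik at P1.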
